A study of Mus musculus with 24 samples.

Results

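Cell cycle and DNA replication genes were followed in the distal colon of mice with T cell transfer colitis. The set holds 37 genes chosen by name, of 43280 gene symbols counted, and all 37 passed the filter on low counts that left 14773 genes for testing. By role they are 13 genes of DNA replication and nucleotide supply, 15 genes of mitosis, 6 interphase cyclins and cyclin-dependent kinases (CDKs), and 3 transcription factors of the cycle. RNA came from female C.B-17/Icr-scid/scid (SCID) mice, which lack functional T and B lymphocytes, bought at 7 weeks of age. There were 24 libraries, 4 in each of 6 groups. Normal mice had no cell transfer and no treatment. In the 5 other groups, CD4+ T cells activated by concanavalin A and interleukin-2 from female BALB/c spleens had been injected into a vein, and the mice were divided on day 17 so that stool scores were even. Vehicle mice received 0.5% methylcellulose. Mice of 2 dose groups were given microparticles of a MEK inhibitor with an enteric coating, at 0.3 or 1 mg/kg by mouth, daily from day 17 to day 27. Isotype mice and Anti-TNFa mice were injected with the control antibody or the antibody to tumour necrosis factor, 0.1 mg per mouse every 4 days from day 17. Colon was taken on day 28 in the design given for the study; for Normal mice the day is not stated. No group received microparticles without the drug, so particle and inhibitor cannot be told apart. The labels do not say that the 4 libraries of a group came from separate animals, so p-values measure the spread between these libraries.

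A dividing cell first licenses its replication origins by loading the MCM helicase with Cdc6 and Cdt1, then copies its DNA with the sliding clamp Pcna and deoxynucleotides made by ribonucleotide reductase, and finally separates its chromosomes under Cdk1 with B-type cyclins, Plk1 and the Aurora kinases. Growth signals, including those passing through the kinases MEK and ERK, raise cyclin D1, which activates Cdk4 and so frees E2F factors to switch on the replication genes. Mitosis genes come on later, with Mybl2 and Foxm1 among their activators, and their promoters often hold CHR and CCAAT elements. In the colon, dividing cells lie mainly in the lower crypt, and cells moving to the surface leave the cycle. Activated lymphocytes and other infiltrating cells also divide, so in whole tissue more dividing cells and more RNA per dividing cell cannot be told apart.

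Library totals were 3052940 to 10587555 counts, highest in both antibody groups. Markers of epithelium summed to between 17083 and 27034 CPM (a count scaled to a common library total) over all 24 libraries, so the epithelium the tissue label calls for was present in each. The 12 T cell markers summed to 13.6 to 16.6 CPM in Normal and to 158 to 222 CPM in Vehicle. Transcripts of exocrine pancreas, 12 markers, summed to 7476 CPM in Vehicle replicate 4 and 5674 CPM in Isotype replicate 1, and lay below 1000 CPM in the other libraries, so the results that rest on both libraries are given without them where the count moves. In the series' table, 16 of 24 column names gave another sample than the sample's own file, and the samples' own files were used.

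The promoters of the 2 main classes differ in the letters they hold, and 4 are shown as examples, by the choice given below. RefSeq promoters of GRCm38.p6, 250 bases before to 50 bases after the start, were found for 31 of 37 genes in 32 entries; Ccnd1, Ccne2, Ccna2, Aurkb, Mcm4 and Foxm1 had none. An E2F motif was read as TTTCCCGC, TTTCGCGC, TTTGCCGC or TTTGGCGC, a CHR as TTTGAA or TTCGAA, and a CCAAT box as CCAAT, each on both strands. Matches are in capitals in the strand of the gene, and adjoining or overlapping matches run together. Cdt1 and Ccnb1 had the smallest p of their class in colitis, and Mcm6 and Top2a were added after the values were seen because, among genes with 1 entry, Mcm6 holds the most E2F matches of the replication class and Top2a the most CHR and CCAAT matches of the mitosis class.
Cdt1: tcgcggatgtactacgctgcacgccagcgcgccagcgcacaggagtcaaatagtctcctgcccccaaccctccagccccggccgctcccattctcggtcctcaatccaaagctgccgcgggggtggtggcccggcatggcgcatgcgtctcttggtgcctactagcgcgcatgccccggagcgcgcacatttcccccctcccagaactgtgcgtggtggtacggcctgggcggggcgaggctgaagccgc
Mcm6: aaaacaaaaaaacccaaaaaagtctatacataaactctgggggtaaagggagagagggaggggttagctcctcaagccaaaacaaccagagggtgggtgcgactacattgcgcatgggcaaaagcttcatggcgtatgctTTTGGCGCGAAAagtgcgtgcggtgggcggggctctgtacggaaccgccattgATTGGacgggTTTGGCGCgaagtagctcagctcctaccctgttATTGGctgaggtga
Ccnb1: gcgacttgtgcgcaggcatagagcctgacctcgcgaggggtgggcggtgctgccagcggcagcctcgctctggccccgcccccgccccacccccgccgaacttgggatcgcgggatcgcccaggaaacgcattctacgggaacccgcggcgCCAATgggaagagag
Top2a: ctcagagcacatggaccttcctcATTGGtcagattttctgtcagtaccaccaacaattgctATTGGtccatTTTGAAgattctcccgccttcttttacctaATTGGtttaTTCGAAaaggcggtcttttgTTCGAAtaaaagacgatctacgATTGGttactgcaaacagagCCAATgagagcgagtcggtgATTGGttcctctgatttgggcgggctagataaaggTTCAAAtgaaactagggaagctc
The Cdt1 stretch is chr8:122567765-122568014 on the plus strand and holds no match, its E2F motif lying just after the start. Mcm6, chr1:128359706-128359955 on the minus strand, holds 3 E2F matches, 2 of which overlap, and 2 CCAAT boxes. Ccnb1, chr13:100786571-100786736 on the minus strand, is shown only up to the outermost annotated start and holds 1 CCAAT box, with a further one after it. Top2a, chr11:99024190-99024439 on the minus strand, holds 4 CHR matches and 6 CCAAT boxes.

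The 13 replication promoters include 2 entries of Mcm7, 1 with E2F and CHR matches and 1 with neither, and none of Mcm4. E2F letters were found in 6 of 13 replication promoters (46.2%) and 1 of 14 mitosis promoters (7.14%), against 2.26% of all 32851 promoters in the RefSeq table. CHR letters showed the other order, in 12 of 14 mitosis promoters (85.7%) and 2 of 13 replication promoters (15.4%), against 19.2% of all. CCAAT boxes were common to both classes, at 92.9% and 69.2%, against 37.4%. A CCAAT box together with a CHR was found in 85.7% of mitosis and 15.4% of replication promoters, against 7.52% of all. Matches of different motifs overlapped in 1 promoter of the set. Such matches describe the letters only, and the data hold no measurement of binding.

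**Figure D1:**
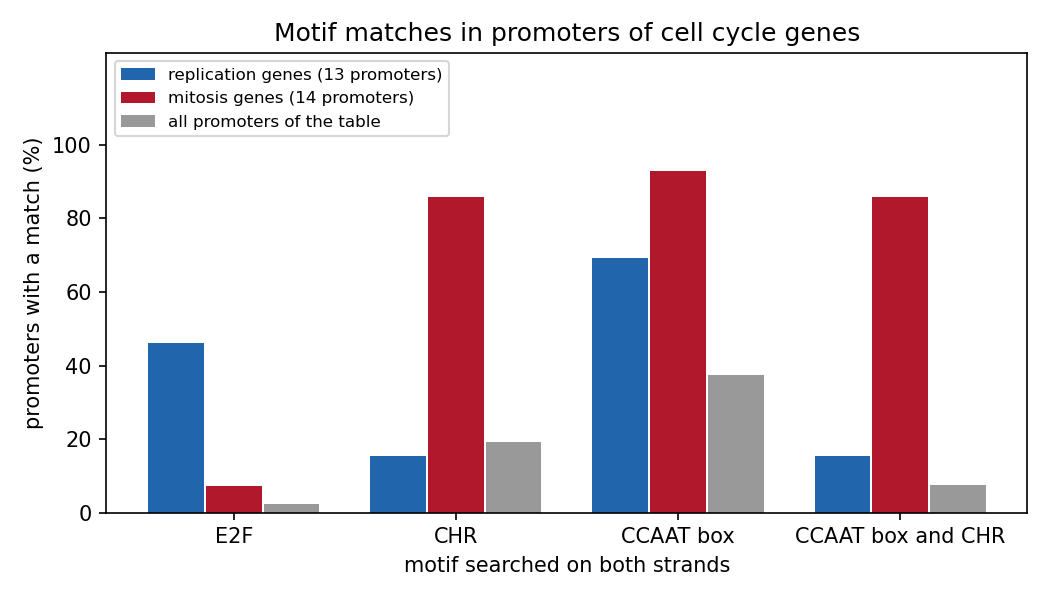
Share of promoters (percent, vertical axis) with at least 1 match to each motif on either strand, for the 13 replication promoters, the 14 mitosis promoters and all 32851 promoters of the table. Mcm7 has 2 entries among the replication promoters. E2F matches are more frequent in the replication promoters (46.2% against 7.14%) and CHR matches in the mitosis promoters (85.7% against 15.4%).

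The first comparison asks how the cycle genes of inflamed colon differ from those of untreated colon. In Vehicle colitis 34 of the 37 genes were higher than in Normal at an adjusted p under 0.05 in edgeR's quasi-likelihood test, where 23.1% of all tested genes were higher. The median log2 fold change of the set was 1.11, against 0.00 over all tested genes. All 13 replication genes and all 15 mitosis genes rose, with 4 of the 6 interphase genes and 2 of the 3 transcription factors. Ccne2, Cdk2 and E2f1 did not pass. For 33 of the 37 genes every Vehicle library lay above every Normal library, which held for 23.3% of all tested genes. No gene of the set had the reverse order, against 20.1% of all. Summed over the set, levels were 1495 ± 425 CPM (SD, n = 4) in Normal and 3248 ± 167 CPM in Vehicle.

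**Figure D2:**
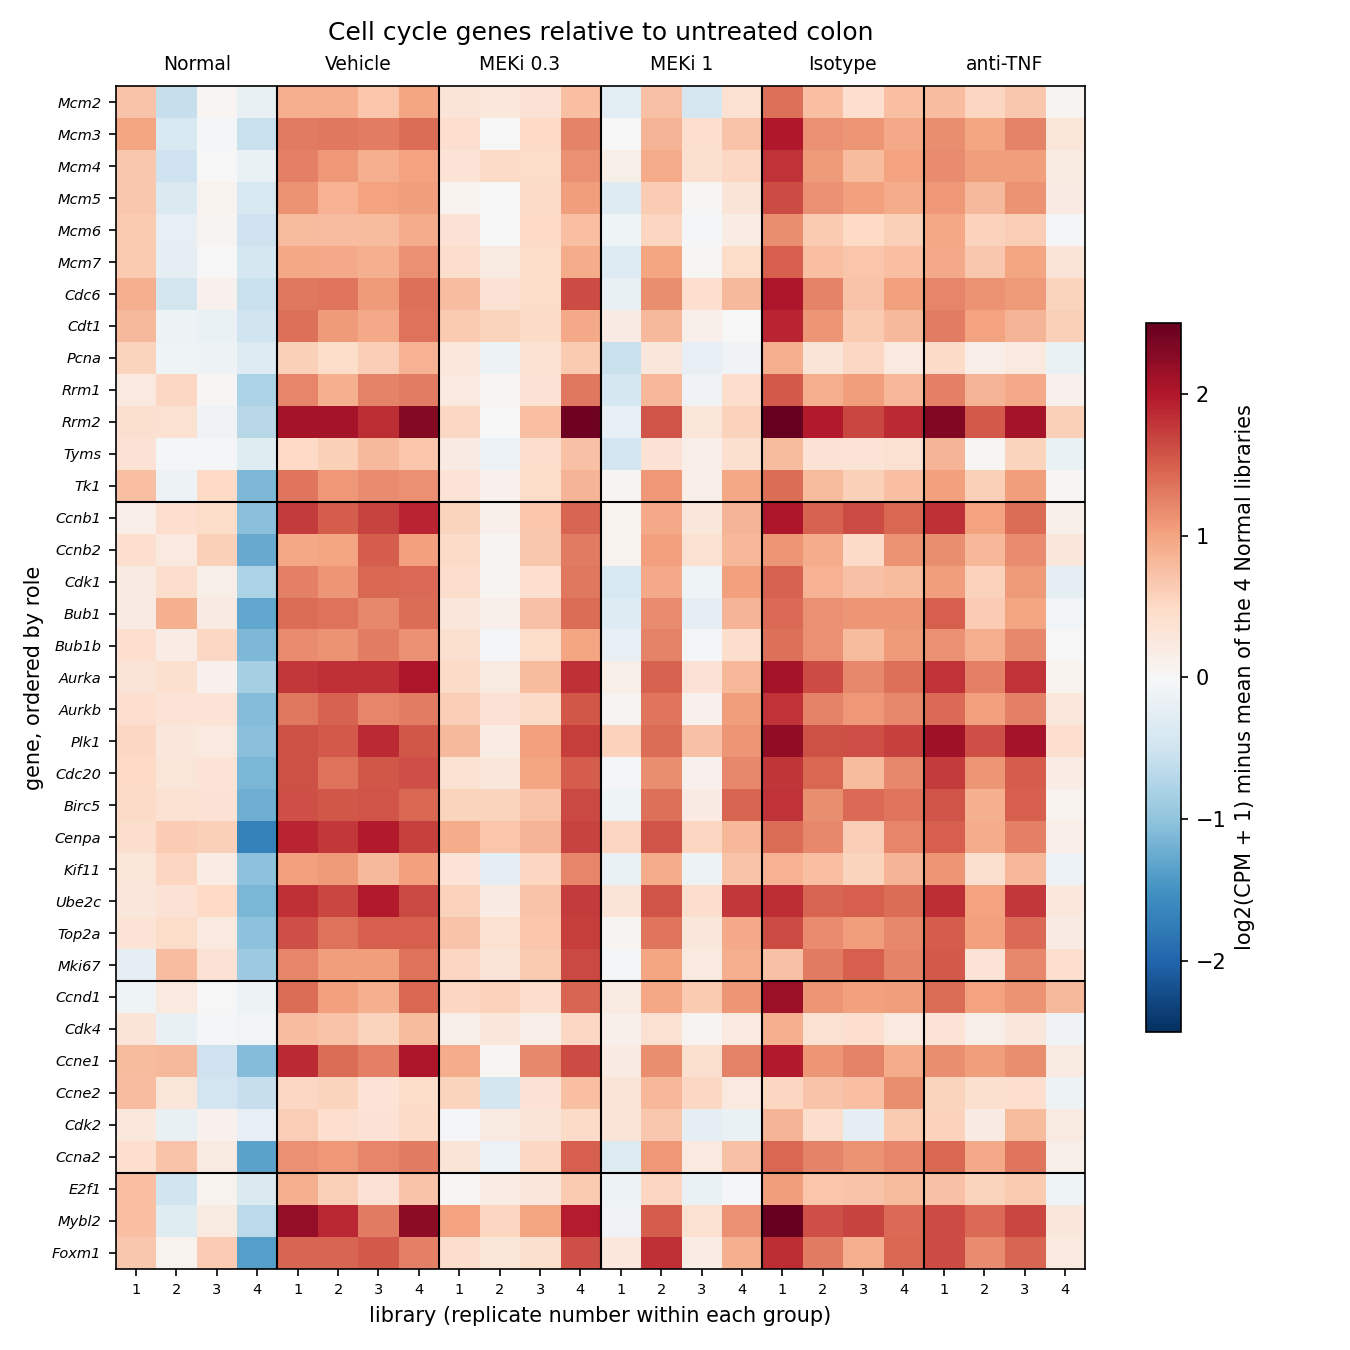
Heat map of the 37 genes (rows, by role) in the 24 libraries (columns, by group and replicate). Colour is log2(CPM + 1) minus the mean of the 4 Normal libraries, so red is above untreated colon. The Vehicle and Isotype columns are red in nearly every row, while Normal replicate 4 is blue for most mitosis genes and MEKi 0.3 replicate 4 is the reddest column of its group.

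Among the replication genes, the licensing factor Cdt1 had 26.2, 13.1, 12.7 and 9.87 CPM in the Normal libraries 1 to 4. In Vehicle its levels were 39.0, 31.5, 29.0 and 38.3 CPM, all above the highest Normal value, that of replicate 1 (log2 fold change 1.11, SE 0.26, adjusted p = 0.00145). Rrm2, the small subunit of ribonucleotide reductase that is made in S phase, showed the largest change of the set. Its Normal levels were 24.7, 24.2, 17.2 and 10.9 CPM. Its Vehicle levels were 81.3, 80.6, 69.0 and 94.0 CPM, without overlap (log2 fold change 2.05, SE 0.50, adjusted p = 0.00256). Mcm4, a subunit of the replicative helicase, went from 46.3, 19.7, 28.6 and 25.3 CPM in Normal to 69.7, 61.3, 54.1 and 58.1 CPM in Vehicle, again without overlap (log2 fold change 0.97, SE 0.25, adjusted p = 0.00304). Its neighbours in the helicase, Mcm2, Mcm3, Mcm5, Mcm6 and Mcm7, had log2 fold changes of 0.77, 1.17, 0.92, 0.73 and 0.90. The loader Cdc6 had 1.20, the large reductase subunit Rrm1 1.07, thymidine kinase Tk1 1.02 and thymidylate synthase Tyms 0.60. The sliding clamp Pcna had 170.2, 106, 104 and 91.7 CPM in Normal and 173, 158, 177 and 209 CPM in Vehicle. It changed least in the class at 0.56. Mcm2 and Pcna were the 2 genes of the class whose groups overlapped, both through Normal replicate 1, the highest Normal library for 22 of the 37 genes.

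The 15 mitosis genes had a median log2 fold change of 1.36, against 0.97 for the replication genes, a difference that was not tested. Cyclin B1, Ccnb1, which drives entry into mitosis with Cdk1, had 25.3, 30.1, 31.2 and 10.3 CPM in Normal. In Vehicle it had 77.0, 65.8, 74.8 and 87.0 CPM (log2 fold change 1.62, SE 0.34, adjusted p = 0.000672). Aurka, the centrosomal Aurora kinase, had 24.03, 25.2, 20.5 and 10.3 CPM in Normal and 67.4, 70.2, 69.7 and 79.6 CPM in Vehicle (log2 fold change 1.81, SE 0.39, adjusted p = 0.000857). Both genes were more than 2-fold higher in every Vehicle library than in the highest Normal library. Cenpa, the histone H3 variant of centromeres, had 25.98, 29.8, 29.1 and 5.14 CPM in Normal and 73.2, 66.2, 77.8 and 63.6 CPM in Vehicle (log2 fold change 1.62, SE 0.37, adjusted p = 0.00135), with Normal replicate 4 far below its group. Top2a, which untangles chromosomes, had 119, 129, 112 and 45.7 CPM in Normal against 290.1, 241, 268 and 266 CPM in Vehicle (log2 fold change 1.36, SE 0.33, adjusted p = 0.00239). The proliferation marker Mki67 had 79.9, 162, 122 and 49.98 CPM in Normal against 223, 196, 195 and 243 CPM in Vehicle (log2 fold change 1.01, SE 0.35, adjusted p = 0.0233), close together but without overlap. The 10 other genes, the ubiquitin-conjugating enzyme Ube2c, the kinases Plk1, Cdk1, Aurkb, Bub1 and Bub1b, cyclin Ccnb2, the survivin gene Birc5, the anaphase activator Cdc20 and the spindle motor Kif11, had log2 fold changes between 0.88 (Kif11) and 1.65 (Ube2c). Ube2c, which loads ubiquitin for the anaphase-promoting complex, had 58.0, 61.9, 67.4 and 21.2 CPM in Normal and 171, 153, 193 and 152 CPM in Vehicle. Cdk1, the kinase that cyclin B activates, had 57.2, 66.8, 54.3 and 28.2 CPM in Normal and 119, 106, 136 and 134 CPM in Vehicle. Birc5, which sits with Aurkb at the centromere, had 30.7, 28.8, 28.6 and 8.84 CPM in Normal and 69.1, 65.8, 67.5 and 60.7 CPM in Vehicle, and its lowest Normal library was again replicate 4. No mitosis gene's Vehicle levels overlapped its Normal levels.

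The interphase genes split. Ccnd1, cyclin D1, had 55.2, 70.1, 59.0 and 54.3 CPM in Normal. It had 158, 122, 111 and 161 CPM in Vehicle, without overlap (log2 fold change 1.17, SE 0.25, adjusted p = 0.000682). Its partner kinase Cdk4 had 162, 113, 124 and 122 CPM in Normal and 219.7, 213, 190.1 and 225 CPM in Vehicle (log2 fold change 0.66, SE 0.14, adjusted p = 0.000529), a smaller difference with the smallest p of the set. Ccne1, cyclin E1, which starts S phase with Cdk2, had 17.8, 18.02, 6.53 and 4.11 CPM in Normal and 38.2, 27.5, 24.9 and 43.0 CPM in Vehicle (log2 fold change 1.52, SE 0.41, adjusted p = 0.00479). Cyclin A2, Ccna2, rose by 1.00. Ccne2, the second E-type cyclin, had 6.28, 4.26, 2.05 and 1.85 CPM in Normal and 5.12, 5.31, 4.39 and 4.85 CPM in Vehicle. These groups overlapped and the test was not passed (log2 fold change 0.43, SE 0.34, adjusted p = 0.315, 95% interval -0.28 to 1.14). Cdk2 did not pass either, at 0.43 (adjusted p = 0.0816). Ccnd1, Cdk4, Cdk2, Ccne2 and Ccna2 each overlap a coding gene on the opposite strand, as do 4 other members, and whether counting used strand is not given, so reads of such pairs cannot be told apart.

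Of the transcription factors, Mybl2 had 10.6, 4.59, 7.09 and 3.29 CPM in Normal and 30.5, 24.3, 15.8 and 31.6 CPM in Vehicle (log2 fold change 1.94, SE 0.44, adjusted p = 0.00135). Foxm1 had 29.4, 19.3, 28.7 and 6.38 CPM in Normal and 51.6, 51.8, 54.8 and 44.7 CPM in Vehicle (log2 fold change 1.24, SE 0.42, adjusted p = 0.0193). Both were without overlap. E2f1 had 17.8, 6.88, 10.8 and 7.61 CPM in Normal and 19.6, 15.7, 13.2 and 17.1 CPM in Vehicle, where only replicate 1 lay above the highest Normal library (log2 fold change 0.55, SE 0.24, adjusted p = 0.0661). Per kilobase of annotated exon, Pcna was the most abundant member in Normal and in Vehicle (49.2 and 74.7 CPM per kb), ahead of Cdk4 (40.1 and 65.2 CPM per kb). Ccne2 was the least abundant member (1.03 and 1.41 CPM per kb). Mybl2 moved from 1.38 to 5.52 CPM per kb.

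**Figure D3:**
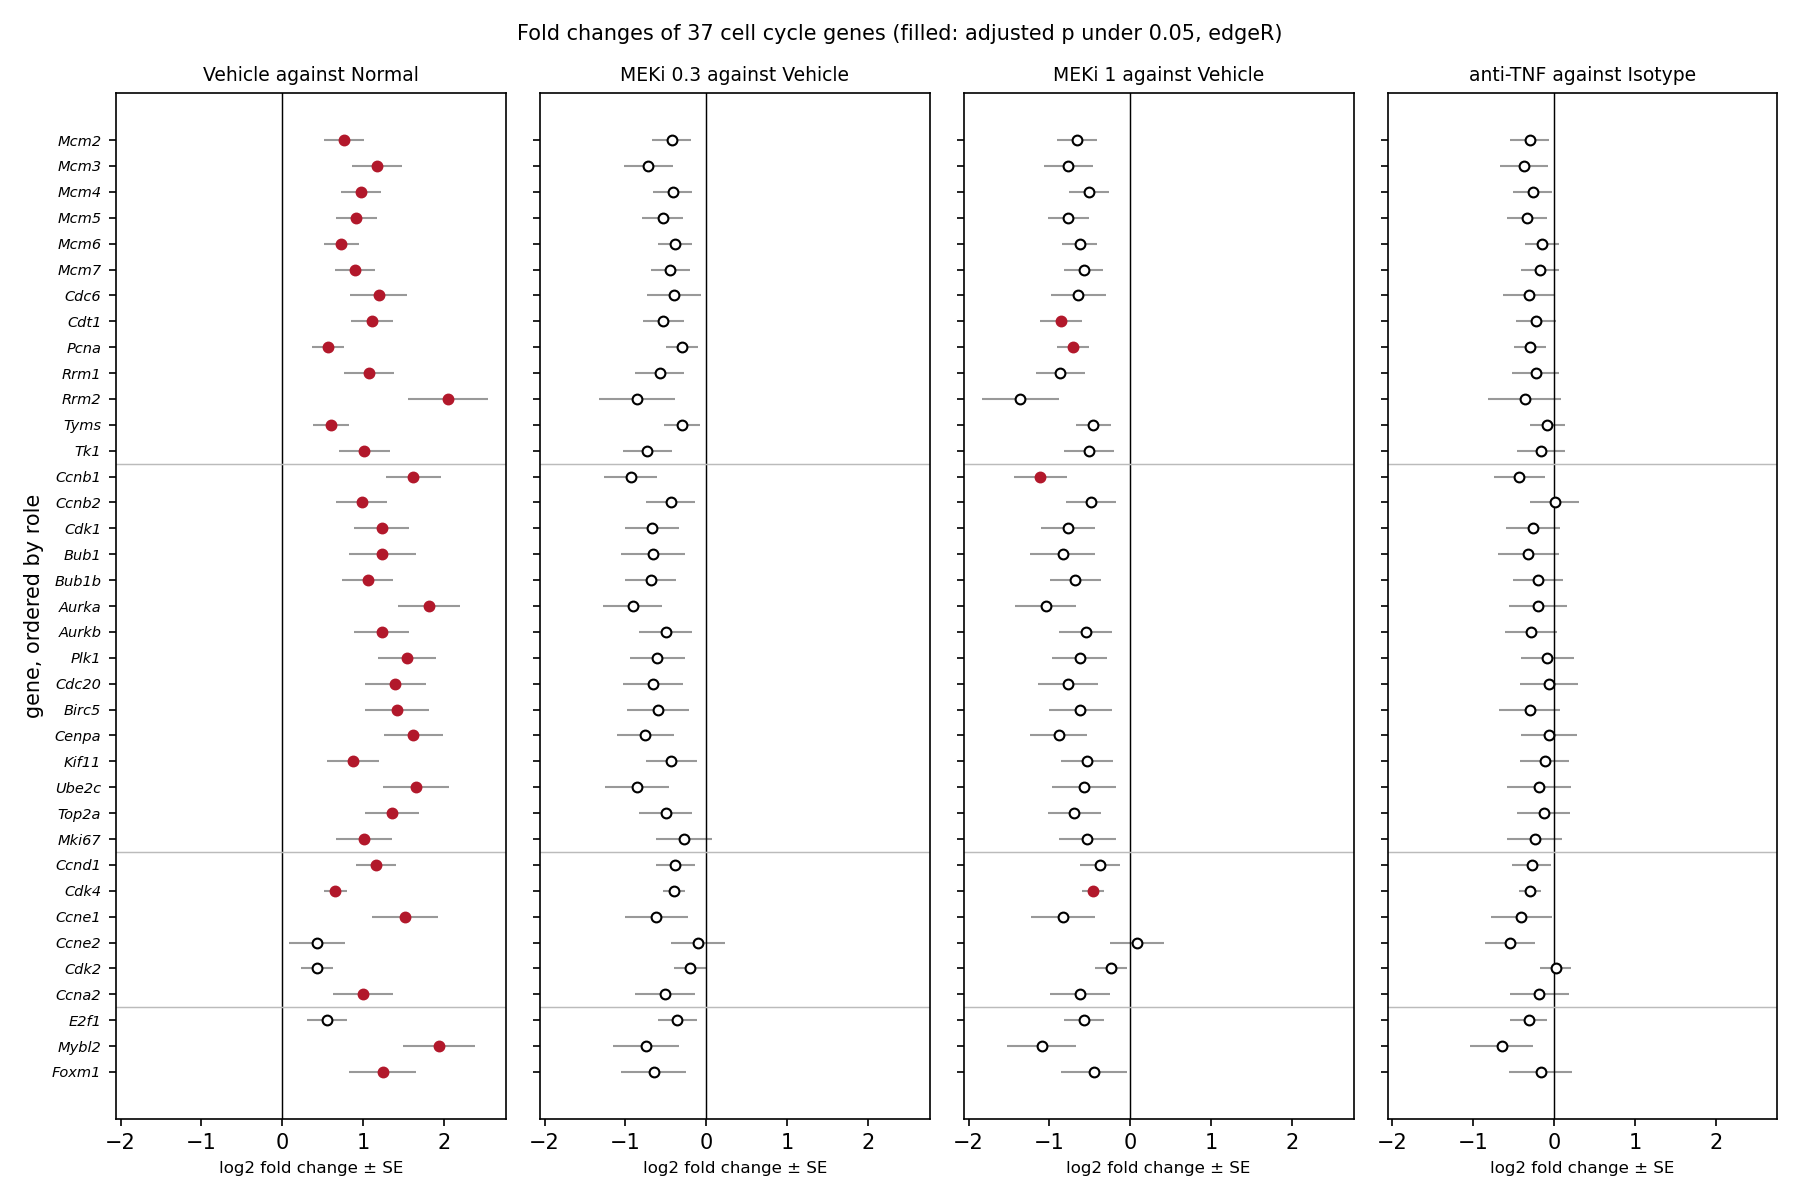
Log2 fold change ± SE of each of the 37 genes (rows, by role) in 4 comparisons, from edgeR fits over all 24 libraries. Filled points have an adjusted p under 0.05: 34 points right of 0 in Vehicle against Normal, 4 points left of 0 in MEKi 1 against Vehicle (Pcna, Cdk4, Cdt1 and Ccnb1), and none in the other 2 panels.

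Other cycle genes were read from lists that do not include the 37. Of 33 further replication genes 26 rose in Vehicle and none fell, with a median of 0.94, where 23.1% of all tested genes rose and 23.3% fell. The lists that follow are read against the same shares. Dbf4, the activator of the Cdc7 kinase that fires origins, had the smallest p (log2 fold change 1.72, SE 0.25, adjusted p = 1.11e-05), followed by the origin factor Mcm10 (1.60, adjusted p = 0.000286) and the helicase subunit Gins1 (1.93, adjusted p = 0.000316). Of 40 further mitosis genes 36 rose, with a median of 1.10, led by Cep55 of the cell division bridge (1.68, adjusted p = 0.000529), securin Pttg1 (1.40, adjusted p = 0.00095) and the spindle midzone protein Prc1 (1.35, adjusted p = 0.00115). Of 12 further regulators of G1 and S phase entry 8 rose and 1 fell. E2f2, an activating E2F, had 11.7, 4.59, 15.3 and 6.38 CPM in Normal and 56.3, 56.3, 60.4 and 59.4 CPM in Vehicle (log2 fold change 2.54, SE 0.33, adjusted p = 4.33e-06) and no overlap. The S phase regulators Fbxo5 (1.31, adjusted p = 0.000734) and E2f7 (1.60, adjusted p = 0.00269) came next, and Ccnd2, cyclin D2, was the gene that fell (-0.50, adjusted p = 0.0155).

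CDK inhibitors and pocket proteins, which hold cells out of the cycle, were read in the same list as Btg1, Btg2, Gadd45a and Gadd45b. The list changed in both directions. Of its 14 genes 5 fell and 2 rose, where 23.3% of all tested genes fell and 23.1% rose. Cdkn1b, the inhibitor p27, had 45.9, 71.4, 47.6 and 53.7 CPM in Normal and 33.1, 33.8, 27.5 and 24.6 CPM in Vehicle (log2 fold change -0.92, SE 0.21, adjusted p = 0.00112). Cdkn2b, the inhibitor p15, had 50.4, 68.5, 51.9 and 59.6 CPM in Normal and 18.1, 20.7, 26.8 and 19.0 CPM in Vehicle (log2 fold change -1.49, SE 0.35, adjusted p = 0.0018). Every Vehicle library lay below every Normal library for both. Cdkn2a, which encodes p16 and p19ARF, had no count in the 4 Normal libraries and 2.35, 3.98, 1.95 and 3.16 CPM in Vehicle (adjusted p = 0.000299). Against a floor of 3 counts over the Normal group it was at least 16.9-fold higher. Of 12 DNA damage genes 6 rose and 1 fell, read against the same shares, led by the exonuclease Exo1 (1.58, adjusted p = 0.000662), Rad54l (1.70, adjusted p = 0.00203) and Rad51ap1 (1.41, adjusted p = 0.00414) of recombination repair. Wee1, which restrains Cdk1, was the gene that fell (-0.76, adjusted p = 0.0212).

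Markers of several cell types moved with the colitis groups. In Vehicle 23.1% of all tested genes were higher and 23.3% lower than in Normal. Monocyte and macrophage markers, 8 genes, summed to 541 to 623 CPM in Normal and 2486 to 4189 CPM in Vehicle, and 7 of the 8 passed as higher. Of 12 T cell markers 11 were higher, and Cd3d, Cd3e and Cd5 were at 0 in every Normal library. Neutrophil markers, 8 genes, summed to 239 to 453 CPM in Normal and 758 to 1404 CPM in Vehicle, with 7 of 8 higher. Gene by gene their median log2 fold change was 6.11, and 1 value was negative (-0.25). The 8 surface colonocyte markers summed to 8750 to 10084 CPM in Normal and 1963 to 2469 CPM in Vehicle, with 6 of 8 lower and 1, Krt20, higher. Smooth muscle markers were lower, 8 of 8, with sums of 6686 to 8524 CPM in Normal and 1514 to 3421 CPM in Vehicle. Sums of the 10 crypt stem and progenitor markers overlapped, at 339 to 441 CPM in Normal and 374 to 458 CPM in Vehicle. Of the 9 tested, 2 were higher and none was called lower. The other 7 values were negative, and the median log2 fold change of the 9 was -0.29. The part of any of these in the cycle genes' difference was not tested.

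Colitis mice given the isotype antibody were compared with the same Normal libraries. Here 30 of the 37 genes were higher, where 20.9% of all tested genes were higher and 20.3% lower, and the median log2 fold change was 1.07. For 22 genes the groups did not overlap, which held for 20.3% of all. By class 10 of 13 replication, 12 of 15 mitosis, 5 of 6 interphase and 3 of 3 transcription factor genes were higher. Plk1, the kinase that prepares mitosis, had 31.0, 26.2, 25.6 and 9.87 CPM in Normal and 103, 66.8, 67.6 and 72.4 CPM in Isotype (log2 fold change 1.71, SE 0.35, adjusted p = 0.000798). Ccnd1 had 265, 129, 121 and 124 CPM in Isotype (log2 fold change 1.36, SE 0.25, adjusted p = 0.000199), with replicate 1 far above the others. Ccne2 and E2f1, which did not pass in Vehicle, passed here with log2 fold changes of 0.83 (adjusted p = 0.0473) and 0.72 (adjusted p = 0.0191). Pcna, Tyms, Tk1, Ccnb2, Cenpa, Kif11 and Cdk2 did not pass. Mcm4, Mcm5, Cdt1, Ccnb1, Aurka, Cdk4, Ccne1, Mybl2, Foxm1, Mki67 and Top2a all passed, with values between 0.45 (Cdk4) and 1.98 (Mybl2). Isotype replicate 1 was the highest of its group for 34 of the 37 genes. Without both libraries rich in pancreas transcripts, which include this one, 19 genes were higher, where 17.9% of all genes were. Without Normal replicate 4, the lowest Normal library for 33 genes, 18 were higher, and the share of all genes in that fit is not given here.

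Both control treatments of colitis were then compared. No member was called between Isotype and Vehicle by edgeR, 1 had an unadjusted p under 0.05, and DESeq2 called none, where edgeR called 1.32% of all genes higher and 1.67% lower. The gene with the smallest p was Cenpa, with 51.0, 44.4, 29.5 and 45.4 CPM in Isotype, all below the Vehicle values given above (log2 fold change -0.73, SE 0.35, adjusted p = 0.282). It was the only member without overlap, where 6.44% of all genes were without overlap and lower and 5.75% higher. A fit of those groups alone called it. Mki67 differed by 0.06 (95% interval -0.66 to 0.77), Top2a by -0.22 (-0.89 to 0.45), Ccnd1 by 0.20 (-0.30 to 0.69), Cdk4 by -0.21 (-0.49 to 0.07) and Ccne2 by 0.40 (-0.26 to 1.05).

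The next comparison asks what the MEK inhibitor at 1 mg/kg did to these genes in colitis. Compared with Vehicle, 4 of the 37 genes were lower and none was higher, where 4.51% of all tested genes were lower and 6.08% higher. These were 2 of 13 replication genes (Pcna and Cdt1), 1 of 15 mitosis genes (Ccnb1) and 1 of 6 interphase genes (Cdk4). By class, 9 replication, 7 mitosis, 2 interphase and 2 transcription factor genes had an unadjusted p under 0.05, and the class medians were -0.65, -0.68, -0.42 and -0.57. The median over the set was -0.63 against 0.00 over all tested genes, 36 of the 37 values were negative, and 20 genes in all had an unadjusted p under 0.05. For 19 genes all 4 treated libraries lay below all Vehicle libraries, which held for 10.3% of all tested genes, and none lay wholly above, against 8.35%. Summed levels were 1999 ± 658 CPM (SD, n = 4) at 1 mg/kg, between those of Normal and Vehicle, and wide: replicate 1 summed to 1349 CPM and replicate 2 to 2764 CPM.

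**Figure D4:**
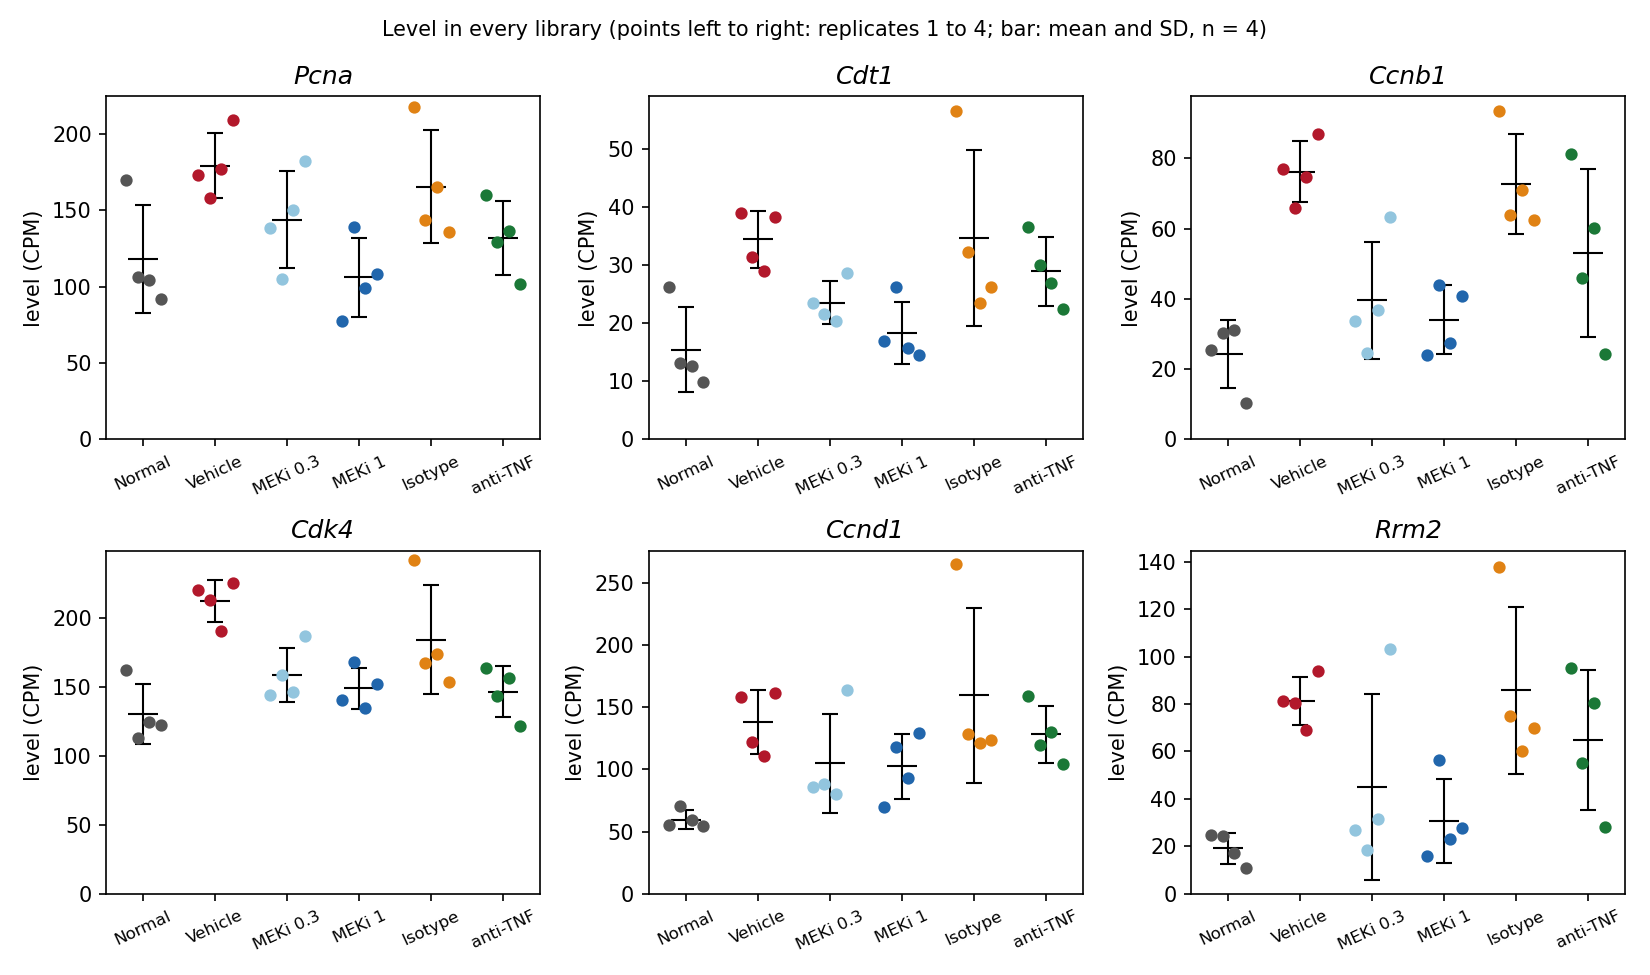
Levels in CPM (vertical axis, from 0) of 6 genes in every library of the 6 groups, with the mean and SD of 4 libraries. Pcna, Cdt1, Ccnb1 and Cdk4 are below all Vehicle points in MEKi 1, Ccnd1 keeps MEKi 1 and MEKi 0.3 means above Normal, and Rrm2 shows 1 high point each in MEKi 0.3 (replicate 4) and Isotype (replicate 1).

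Pcna had 173, 158, 177 and 209 CPM in Vehicle. At 1 mg/kg it had 77.3, 139, 99.0 and 109 CPM, 1.64-fold lower (log2 fold change -0.71, SE 0.20, adjusted p = 0.0296). All 4 treated values lay below the lowest Vehicle value and within or below the Normal range. Cdt1 had 16.9, 26.3, 15.8 and 14.5 CPM at 1 mg/kg, 1.81-fold lower than in Vehicle (log2 fold change -0.86, SE 0.26, adjusted p = 0.0379). Ccnb1 had 23.95, 43.8, 27.6 and 40.9 CPM, 2.16-fold lower (log2 fold change -1.11, SE 0.33, adjusted p = 0.0384). Cdk4 had 140.3, 168, 134 and 152 CPM, 1.38-fold lower (log2 fold change -0.46, SE 0.14, adjusted p = 0.0357). None of the 4 overlapped Vehicle. In the GENCODE M21 annotation of GRCm38, Pcna spans chr2:132249162-132253314 (minus strand), Cdt1 chr8:122568015-122573554 (plus), Ccnb1 chr13:100778650-100786570 (minus) and Cdk4 chr10:127063534-127067920 (plus). Pcna and Ccnb1 have annotated pseudogenes, Cdk4 overlaps Tspan31 on the other strand and Cdt1 overlaps Gm20388 on its own, so the authors' counting could have split or shared their reads.

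Other members did not pass at 1 mg/kg, although some differed by more. Rrm2 had 15.7, 56.2, 23.0 and 27.7 CPM (log2 fold change -1.36, SE 0.48, adjusted p = 0.0693), without overlap with Vehicle but with replicate 2 well above the rest. Mybl2 differed by -1.10 (adjusted p = 0.0876), Aurka by -1.04 (adjusted p = 0.0715) and Rrm1 by -0.87 (adjusted p = 0.0656). Top2a had 99.2, 240.05, 116 and 184 CPM (log2 fold change -0.69, SE 0.33, adjusted p = 0.158), with replicate 2 just below the lowest Vehicle library. Mki67 had 93.1, 189, 112 and 178 CPM (log2 fold change -0.53, SE 0.35, adjusted p = 0.31). Ccnd1 had 69.8, 118, 93.4 and 129 CPM, with replicates 2 and 4 inside the Vehicle range (log2 fold change -0.37, SE 0.24, adjusted p = 0.302, 95% interval -0.88 to 0.13). The remaining members lay between -0.89 (Cenpa) and 0.08 (Ccne2, the only positive value).

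The count at 1 mg/kg moved when single libraries were left out. It was 0 when Vehicle replicate 1, Vehicle replicate 4, or treated replicate 1 or 3 was left out, 1 without Vehicle replicate 2, and 14 without treated replicate 2, where 6.9% of all genes were lower. For the fits with 0 or 1 call the shares of all genes are not given here, so those counts are not read as results about the members. DESeq2 called 9 lower, where 5.88% of all genes were. A fit of those groups alone called 15, where 6.77% were, and leaving out the pancreas-rich libraries called none, where 1.42% were. Over 18 alternatives Pcna was called in 13, Cdk4 in 11, Cdt1 in 10 and Ccnb1 in 9, always with a negative log2 fold change. Treated replicate 2 was the highest of its group for 30 of the 37 genes and replicate 1 the lowest for 30. Replicate 2 also had the group's highest summed T cell markers (157 CPM, others 57.6 to 115) and the lowest surface colonocyte markers (1946 CPM, others 4557 to 5239). The part of these in the spread was not tested.

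Markers of infiltrating cells were lower as well at 1 mg/kg, where 4.51% of all tested genes were lower and 6.08% higher. Of 12 T cell markers 5 were lower, with sums of 57.6 to 157 CPM against 158 to 222 CPM in Vehicle. Of the 8 monocyte and macrophage markers 5 were lower (658 to 2115 CPM against 2486 to 4189 CPM), as were 5 of the 8 neutrophil markers (218 to 443 CPM against 758 to 1404 CPM), and 2 of the 8 surface colonocyte markers were higher. Against Normal the neutrophil markers at 1 mg/kg kept a median log2 fold change of 3.56. There 3 of the 8 were higher and none lower, where 8.06% of all genes were higher, and 3 values were negative. No T cell marker sum at 1 mg/kg reached the Vehicle range. Their part in the cycle genes' difference was not tested.

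Of 33 further replication genes 5 were lower and none higher, where 4.51% of all tested genes were lower and 6.08% higher. All 33 values were negative, with a median of -0.65. The fork protection factors Tipin (13.4, 12.3, 14.4 and 17.7 CPM in Vehicle and 7.30, 6.84, 6.89 and 7.56 CPM treated) and Clspn (20.5, 20.7, 18.5 and 22.8 CPM and 7.53, 12.6, 7.91 and 10.4 CPM) led, both without overlap, at -0.97 (adjusted p = 0.0182) and -1.05 (adjusted p = 0.0191). Dbf4 came next at -0.86 (adjusted p = 0.0275). Of 40 further mitosis genes 2 were lower, the kinetochore gene Ndc80 (-1.34, adjusted p = 0.0277) and the checkpoint kinase Ttk (-0.90, adjusted p = 0.0407), and all 40 values were negative. The count of 2 lay close to the share of all genes. Fbxo5 was the 1 of 12 further G1 and S phase regulators that was lower (-0.88, adjusted p = 0.0445). In the list of 14 genes that holds the CDK inhibitors and pocket proteins, Cdkn2a was lower (-2.45, adjusted p = 0.0465), with 0, 0.855, 0.51 and 0.63 CPM treated, and no other was called. Fbxo5 and Cdkn2a, 1 call in each list, are read against the same shares. Cdkn1a, the inhibitor p21, had 443, 432, 419.7 and 435 CPM treated against 290.1, 405, 379 and 265 CPM in Vehicle, and did not pass (log2 fold change 0.41, SE 0.18, adjusted p = 0.134). No DNA damage gene passed in edgeR, with 5 of 12 at an unadjusted p under 0.05.

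Of the genes that ERK signalling raises directly, 10 of 11 were tested. At 1 mg/kg 1 was lower, Ier3 (-0.997, adjusted p = 0.0182), where 4.51% of all tested genes were lower. The median of the 10 was -0.29, 8 values were negative and 3 genes had an unadjusted p under 0.05. The other 2 of these were the phosphatase Dusp4 (-1.28, adjusted p = 0.1) and the feedback inhibitor Spry2, with the opposite sign (0.63, adjusted p = 0.0572). The feedback phosphatase Dusp6 had 58.2, 65.8, 52.9 and 56.0 CPM in Vehicle and 60.0, 84.0, 60.7 and 52.9 CPM treated (0.19, adjusted p = 0.589), and the feedback inhibitor Spry4 differed by -0.14 (adjusted p = 0.76).

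At 0.3 mg/kg edgeR called no member against Vehicle, where it called 0% of all genes lower and 0.00677% higher. DESeq2 called none, and 10 members had an unadjusted p under 0.05. All 37 values were negative, with a median of -0.53, and for 8 genes no treated library reached the Vehicle range, which held for 3.53% of all tested genes. Cdk4 had 144, 158, 146 and 186 CPM at 0.3 mg/kg, all below Vehicle (log2 fold change -0.40, SE 0.14, adjusted p = 0.193). Ccnb1 had 33.6, 24.5, 36.9 and 63.2 CPM, also below Vehicle (log2 fold change -0.94, SE 0.33, adjusted p = 0.193). Aurka had 26.7, 22.2, 33.8 and 69.4 CPM, with replicate 4 inside the Vehicle range (log2 fold change -0.91, SE 0.37, adjusted p = 0.224). Mki67, Top2a and Ccnd1 differed by -0.27, -0.50 and -0.38, with overlap. In this comparison libraries of the same replicate number deviated together, and with the number as a block in a fit of both groups 5 members were lower, Aurka, Bub1b, Ccnb1, Cdk1 and Tk1, where 1.25% of all genes were lower. No member was called with the block in the fit of all 24 libraries, nor without the block in the fit of both groups alone, so these calls need both choices together.

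Replicate 4 at 0.3 mg/kg stood apart. It was the highest library of its group for all 37 genes, and its summed level of 3424 CPM was above the highest Vehicle sum of 3420 CPM, while replicate 2 summed to 1606 CPM. Rrm2 showed this most plainly, at 26.7, 18.2, 31.5 and 103 CPM. Foxm1 had 25, 22.6, 24.2 and 57.3 CPM and Top2a 155, 123, 153 and 315 CPM. The same library had the group's highest summed monocyte and macrophage markers (3137 CPM, others 1836 to 2032) and T cell markers (194 CPM, others 121 to 145), and the lowest surface colonocyte markers (2197 CPM, others 3721 to 4467). Without it 4 members were lower than in Vehicle, Aurka, Ccnb1, Cdk4 and Rrm2, where 2.86% of all genes were lower. The part of these markers in its levels was not tested.

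The doses were compared directly. edgeR and DESeq2 called no member between 1 and 0.3 mg/kg, none had an unadjusted p under 0.05, and edgeR called 0% of all genes in either direction. The median difference over the set was -0.13. Pcna had the smallest p, with a log2 difference of -0.41 (95% interval -0.82 to 0.00), then Cdt1 with -0.33 (-0.87 to 0.21) and Mcm6 with -0.23 (-0.68 to 0.21). For Ccnd1 the difference was 0.01 (-0.49 to 0.51), for Mki67 -0.26 (-0.98 to 0.47) and for Top2a -0.19 (-0.86 to 0.49). These intervals leave room for differences of either sign for Ccnd1, Mki67 and Top2a, and do not show that both doses act alike.

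Against Normal, treated colitis kept few called members. At 1 mg/kg 1 of the 37 was higher and none lower, where 8.06% of all genes were higher and 4.79% lower. At 0.3 mg/kg 1 was higher and none lower, where 10.8% were higher and 9.06% lower. In both it was Ccnd1, and in both the share of the set was below that of all genes. For 1 gene at 1 mg/kg (Plk1) and 3 at 0.3 mg/kg (Birc5, Cenpa and Ccnd1) no treated library reached the Normal range, which held for 9.25% and 12.4% of all genes. None lay wholly below Normal, against 9.44% and 11.1% of all genes. Its treated levels were 69.8, 118, 93.4 and 129 CPM at 1 mg/kg (log2 fold change 0.79, SE 0.25, adjusted p = 0.0372) and 86.1, 88.5, 80.5 and 164 CPM at 0.3 mg/kg (log2 fold change 0.78, SE 0.25, adjusted p = 0.0283). Replicate 1 at 1 mg/kg lay just inside the Normal range, and every library at 0.3 mg/kg lay above it. Top2a differed from Normal by 0.67 (adjusted p = 0.183) at 1 mg/kg and 0.86 (adjusted p = 0.0698) at 0.3 mg/kg, and Mki67 by 0.48 (adjusted p = 0.38) and 0.74 (adjusted p = 0.144). The set's medians were 0.48 and 0.56, with 35 of the 37 values positive at 1 mg/kg and all 37 at 0.3 mg/kg. An unadjusted p under 0.05 was found for 3 and 13 members. Few calls therefore do not show that the set was back at Normal levels. At 1 mg/kg the replication genes had a median of 0.26 and the mitosis genes 0.63. Both comparisons share the Normal libraries with that of Vehicle. The call of Ccnd1 at 1 mg/kg was lost in 5 of the 8 fits that left out 1 library, those without Normal replicate 1, 3 or 4 or treated replicate 2 or 4. At 0.3 mg/kg no member was called without Normal replicate 3 or 4 or treated replicate 4, and without Normal replicate 1 the 7 called were Cdc6, Cdt1, Mcm3, Mcm4, Mcm6, Mcm7 and Mybl2, not Ccnd1. Without treated replicate 2 there were 5, Ccnd1, Mybl2, Plk1, Rrm2 and Top2a. The shares of all genes in these fits are not given here.

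Anti-TNFa mice were compared with Isotype mice. edgeR and DESeq2 called no member, 1 had an unadjusted p under 0.05, and edgeR called 0.0135% of all genes lower and 0.00677% higher. The median was -0.24, and 35 of the 37 values were negative. Cdk4 had the smallest p, with 242, 167, 174 and 153 CPM in Isotype and 163, 143, 157 and 121 CPM with anti-TNFa (log2 fold change -0.30, SE 0.14, adjusted p = 0.406). Ccne2 differed by -0.54 (adjusted p = 0.526) and Mybl2 by -0.65 (adjusted p = 0.558). Mki67 differed by -0.24 (95% interval -0.96 to 0.47), Top2a by -0.13 (-0.80 to 0.54) and Ccnd1 by -0.28 (-0.77 to 0.22). Every member's groups overlapped, where 3.61% of all genes were without overlap and lower with anti-TNFa. For 4 antibody libraries, replicates 3 and 4 of Isotype and 1 and 2 of Anti-TNFa, the series' table gives the opposite antibody. Which names are right could not be decided from the counts. With the table's names edgeR also called no member between the antibodies, and against Normal it called 31 in Isotype and 13 with anti-TNFa, in place of 30 and 14. The shares of all genes under those names are not given here.

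With anti-TNFa 14 of the 37 genes were higher than in Normal, where 12.5% of all genes were higher and 9.9% lower, with a median of 0.82. For 2 genes, Ccnd1 and Rrm2, every library lay above Normal, against 12.5% of all genes, and no gene lay wholly below, against 8.29%. Plk1 had 95.6, 67.9, 94.0 and 29.0 CPM (log2 fold change 1.62, SE 0.35, adjusted p = 0.00274), with replicate 4 inside the Normal range. Rrm2 had 95.1, 55.0, 80.6 and 28.2 CPM (log2 fold change 1.75, SE 0.49, adjusted p = 0.0161). Ccnd1 had 159, 119.7, 129.8 and 104 CPM (log2 fold change 1.08, SE 0.25, adjusted p = 0.00336). By class 5 of 13 replication, 7 of 15 mitosis, 1 of 6 interphase and 1 of 3 transcription factor genes passed. Mcm4, Cdt1, Aurka, Ccnb1, Top2a and Mybl2 were among them, at 0.85, 0.89, 1.35, 1.12, 1.01 and 1.33, and Mki67 did not (0.83, adjusted p = 0.0911). Replicate 4 was the lowest of its group for 35 of the 37 genes, with a summed level of 1585 CPM against a group mean of 2579 ± 775 CPM. It also had the group's lowest summed T cell markers (58.8 CPM, others 113 to 144) and highest surface colonocyte markers (5688 CPM, others 2345 to 3303), whose part was not tested. Without it 24 members were higher than in Normal, where 16.4% of all genes were, and without replicate 1 only Ccnd1 and Plk1 were, where 7.76% were. The same 2 genes were called without Normal replicate 4, 5 were without replicate 3 of anti-TNFa, 8 without its replicate 2 and 7 without Normal replicate 3. For these fits the shares of all genes are not given here.

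The effects of the inhibitor at 1 mg/kg, against Vehicle, and of anti-TNFa, against Isotype, were compared in 1 contrast. No member differed by edgeR or DESeq2 and 0 had an unadjusted p under 0.05, where edgeR called 0.00677% of all genes in each direction. Cdt1 had the smallest p, with a difference of the 2 log2 fold changes of -0.64 (adjusted p = 0.934), followed by Cenpa at -0.82 (adjusted p = 0.934) and Aurka at -0.84 (adjusted p = 0.934). For Top2a, Mki67 and Ccnd1 it was -0.56 (95% interval -1.51 to 0.39), -0.29 (-1.30 to 0.73) and -0.10 (-0.80 to 0.61). The 4 calls against Vehicle are therefore not shown to be larger than the anti-TNFa differences.

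The lists of further genes were also read against Normal in the other groups. In Isotype 23 of 33 further replication genes and 29 of 40 further mitosis genes were higher, where 20.9% of all genes were. With anti-TNFa 9 of 33 and 15 of 40 were higher, where 12.5% of all genes were. At 0.3 mg/kg 6 of 33 and 3 of 40 were, where 10.8% of all genes were. At 1 mg/kg 2 of 33 and 2 of 40 were, where 8.06% of all genes were, so the counts at 1 mg/kg, and that of mitosis genes at 0.3 mg/kg, lay below the share of all genes. E2f2 passed in every group, at 2.59 (adjusted p = 4.20e-06) in Isotype, 2.42 (adjusted p = 1.58e-05) with anti-TNFa, 2.10 (adjusted p = 7.94e-05) at 0.3 mg/kg and 1.86 (adjusted p = 0.000498) at 1 mg/kg. Its levels at 1 mg/kg were 27.6, 58.4, 22.7 and 32.1 CPM, all above the highest Normal library. Dbf4 differed from Normal by 0.86 (adjusted p = 0.0253) at 1 mg/kg and 1.23 (adjusted p = 0.000889) with anti-TNFa. All these comparisons share the Normal libraries.

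Replication and mitosis genes were set against each other in each library as the ratio of summed CPM, mitosis over replication. Normal libraries 1 to 4 had 0.738, 1.47, 1.20 and 0.614. In Vehicle they had 1.30, 1.28, 1.40 and 1.23. The Normal libraries lay on both sides of the Vehicle values, with a mean of 1.01 ± 0.40 (SD, n = 4) against 1.30 ± 0.074. Group means were 1.18 ± 0.15 at 0.3 mg/kg, 1.29 ± 0.19 at 1 mg/kg, 1.21 ± 0.15 in Isotype and 1.21 ± 0.19 with anti-TNFa, and these ranges overlapped. In Normal the sums spread in both classes. Replicate 2, with the highest ratio, had the highest mitosis sum of its group (748 CPM) with a replication sum of 508 CPM. Replicate 1 had the highest replication sum of its group (874 CPM) with a mitosis sum of 645 CPM, and replicate 4 had the lowest of both (410 and 252 CPM). Isotype replicate 1, rich in pancreas transcripts, had the highest replication sum of all 24 libraries (1596 CPM) with a mitosis sum of 1576 CPM, close to its replication sum.

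**Figure D5:**
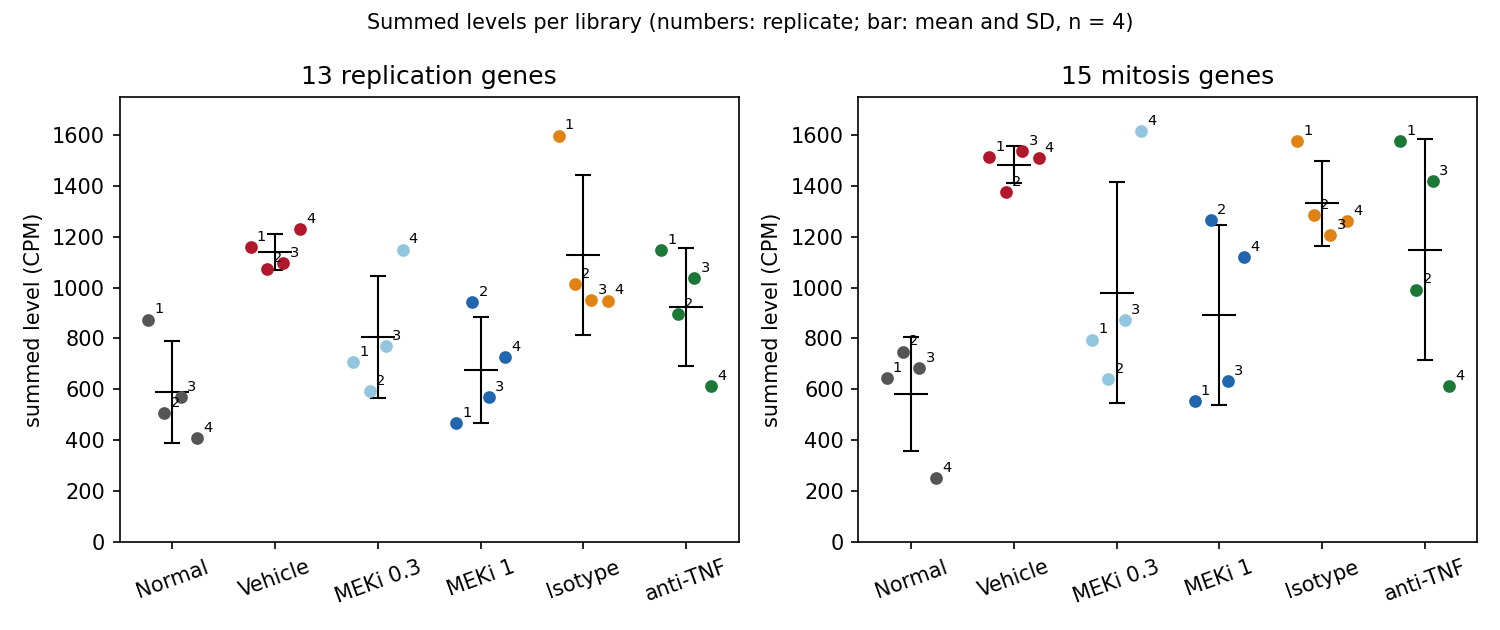
Summed CPM of the 13 replication genes and of the 15 mitosis genes in each library, with the mean and SD of 4 libraries, and replicate numbers beside the points. Vehicle is tight in both panels (1074 to 1230 and 1373 to 1536 CPM), while MEKi 0.3 replicate 4 and anti-TNF replicate 4 stand away from their groups in both.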

How the data were processed

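Per the labels' protocols, poly(A) RNA of distal colon was cut by RNase III and read on an Ion Torrent sequencer. The authors deposited unnormalized counts for each gene symbol, with a file of its own for every sample. Per the submitters' processing notes the genome build is mm10. Aligner, counter, annotation and use of strand: not given in the sources used here. The samples' own files were used for groups, and 16 of the 24 column names of the series' table differ from them. Besides the antibody libraries named above, the names differ for Normal replicates 3 and 4 and for every Vehicle library. They also differ for every library at 0.3 mg/kg and for replicates 1 and 2 at 1 mg/kg. Summed T cell marker counts were 46 to 89 in Normal by the files and 46 to 709 by the table. Those counts overlapped between Vehicle and both doses under either naming, so they do not decide these labels. The inhibitor comparisons were not refitted with the table's names. Totals were 3052940 to 10587555 counts, which sets the counting precision of low genes such as Ccne2.

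CPM are counts scaled to a common library total. The 14773 genes kept by edgeR's filter were fitted over all 24 libraries (R 4.3.3, edgeR 4.0.16 with limma 3.58.1, TMM scaling, quasi-likelihood test, common dispersion 0.0539, residual df 18), and p-values of 11 contrasts were Benjamini-Hochberg adjusted over all genes tested, per contrast; a call is an adjusted p under 0.05. Fold changes come from this fit. No pair of libraries within a group differed by as little as sampling noise (chi-square per gene 5.38 to 59.9). The 37 genes, the gene lists and the rules were chosen with earlier results of these data known. Named were Mki67, Top2a and Ccnd1 throughout, up to 3 called genes of the smallest p per class and per list, all called where 10 or fewer were, and the 3 of smallest p where none was; others were chosen after their values were seen.

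Alternatives were DESeq2 1.42.0, other scalings and filters, fits of the compared groups alone, an offset for transcript length, the replicate number as a block, libraries left out, and the table's antibody names. Only between 0.3 mg/kg and Vehicle did the deviations of every same-numbered pair correlate over 0.1 (0.126, 0.125, 0.167 and 0.184). Between anti-TNFa and Isotype the correlations were 0.216, 0.0862, 0.142 and 0.342, with replicate number 2 under that limit.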

Additional observations from a re-analysis of the deposited data

Results flagged for a closer look

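Of 222 groups of 4 libraries (37 genes in 6 groups), 23 had a highest or lowest library whose gap to the nearest other exceeded Dixon's 95% critical share of the group's range. Chance flags about 1 in 20 independent groups. These groups are not independent, since replicate 4 at 0.3 mg/kg was highest for all 37 genes and Isotype replicate 1 for 34. The 23 flags are therefore not read against that rate. At 0.3 mg/kg, replicate 4 was the high library for 8 genes: the helicase subunits Mcm2 (79.6 CPM) and Mcm4 (64.4 CPM), Rrm2 (103 CPM), Aurkb (56.8 CPM), Birc5 (71.1 CPM), Top2a (315 CPM), Ccnd1 (164 CPM) and Foxm1 (57.3 CPM). In Isotype, replicate 1 was the high library for 8 genes: Mcm3 (130 CPM), Mcm7 (198 CPM), Tyms (63.5 CPM), Cdk1 (138 CPM), Bub1 (23 CPM), Plk1 (103 CPM), Ccnd1 (265 CPM) and Mybl2 (47.5 CPM). In Normal, replicate 4 was the low library for 3 mitosis genes: Aurkb (8.23 CPM), Birc5 (8.84 CPM) and Cenpa (5.14 CPM). In Vehicle, replicate 4 stood apart for Mcm6 (108 CPM) and replicate 3 for Ccnb2 (94.6 CPM) and Plk1 (80.7 CPM). At 1 mg/kg, replicate 2 stood apart for E2f1 (15 CPM).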

How the results depend on the processing

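With 4 libraries a group, counts of called genes in the treated groups moved when single libraries were left out, and low counts limit the precision of genes such as Ccne2. Of the alternative counts 168 lay within 1.5 times the reported one and 43 did not. Counts for Vehicle against Normal did so under every alternative run (27 to 34 with 1 library left out, lowest without Normal replicate 4). The cause of the following differences was not tested. Counts given here without the share of all genes are not read as results about the members, because that share moved too. For anti-TNFa against Normal it was 16.4% without its replicate 4 and 7.76% without its replicate 1. In edgeR with no filter, 1 member was called for 1 mg/kg against Vehicle, 0 for 1 mg/kg against Normal and 8 for anti-TNFa against Normal. DESeq2 called 9 for 1 mg/kg against Vehicle, 2 for 1 mg/kg against Normal and 4 for 0.3 mg/kg against Normal, and its median over all genes lay at -0.14 for Vehicle, -0.23 for Isotype, -0.12 for 0.3 mg/kg and -0.14 for anti-TNFa against Normal. Fits of the compared groups alone called 15 for 1 mg/kg against Vehicle, 1 (Cenpa) for Isotype against Vehicle, 2 for 0.3 mg/kg and 7 for anti-TNFa against Normal. Without the pancreas-rich libraries 0 were called for 1 mg/kg against Vehicle, 19 for Isotype and 2 for 0.3 mg/kg against Normal.

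With 1 library left out, calls ranged from 0 to 14 for 1 mg/kg against Vehicle, 0 to 4 for 0.3 mg/kg against Vehicle, 0 to 2 for 1 mg/kg, 0 to 7 for 0.3 mg/kg, 2 to 24 for anti-TNFa and 18 to 29 for Isotype against Normal, and were 0 for the other comparisons with a reported 0.

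With the replicate block over all libraries, 2 members were called for 0.3 mg/kg and 9 for anti-TNFa against Normal. With the block in fits of the compared groups alone, 14 were called for 1 mg/kg against Vehicle, 5 for 0.3 mg/kg against Vehicle and 26 for anti-TNFa against Normal. Only 0.3 mg/kg against Vehicle met the limit of 0.1 in every pair, and there not every library correlated best with its own number. Whether the numbers pair libraries is thus not settled.

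Of the named genes' log2 values, 24 changed sign, none called. Between the doses Ccnd1 was -0.031 by library size only, -0.0013 with no filter and -0.0079 with a mean of 5 CPM. With 1 library left out it ranged from -0.16 to 0.29, Top2a from -0.42 to 0.17 and Mki67 from -0.42 to 0.10, both positive only without replicate 4 of 0.3 mg/kg. For Isotype against Vehicle Mki67 was -0.14 with the length offset and -0.13 with the table's names, and ranged from -0.10 to 0.21 with 1 library left out. Ccnd1 was -0.038 there without the pancreas-rich libraries and ranged from -0.12 to 0.30. For anti-TNFa against Isotype Ccnd1 was 0.034 without those libraries and ranged from -0.40 to 0.039, and Top2a ranged from -0.29 to 0.073. With the table's names Mki67 was 0.14 and Ccne2 0.12. For the difference of effects Ccnd1 was 0.060 with the table's names and ranged from -0.41 to 0.045.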
